A study of Homo sapiens with 54 samples.

Results

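The transcript levels of 10 genes that the hypoxia-inducible factors (HIFs) switch on were followed through the loss of the splicing regulators *TRA2A* and *TRA2B* and through the overexpression of *TRA2B*. The genes were *CA9*, *VEGFA*, *ADM*, *NDRG1*, *BNIP3*, *PDK1*, *SLC2A1*, *LDHA*, *ANKRD37* and *EGLN3*, 10 of the 55906 gene rows in each table of transcript levels. They were chosen by name as known HIF targets and not by a threshold on any value. Earlier results of these data were known when they were chosen. The RNA-sequencing covered 54 libraries of 4 human cell lines, in 18 conditions with 3 replicates each. None of the labels or methods describes a culture in low oxygen, so every comparison below is one of *TRA2A* or *TRA2B* perturbation and not of oxygen.

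A549 and NCI-H23 are lung cancer lines, with 12 libraries each. Each carried Zim3-dCas9 stably, in which a Cas9 that cannot cut is joined to a repressor domain and silences the promoter that a guide RNA points to (CRISPR interference). The cells were a sorted population rather than 1 clone. They carried control guides (Control KD), *TRA2A* guides (*TRA2A* KD), *TRA2B* guides (*TRA2B* KD) or both (*TRA2A/B* DKD) and were harvested on day 5. LN229 and LN319 are glioblastoma lines, with 15 libraries each, in which active Cas9 cut the gene that the guide named, harvested on day 7. Cells overexpressing luciferase (Luc), a protein with no role in splicing, carried control, *TRA2A* or *TRA2B* guides (Luc Control KO, Luc *TRA2A* KO and Luc *TRA2B* KO). Cells overexpressing *TRA2B* (TRA2B-OE) carried control or *TRA2A* guides. The study describes NCI-H23 and LN319 as dependent on *TRA2A* for growth and A549 and LN229 as not dependent on it. The labels do not say that replicates came from separate cultures, so p-values measure the spread between these libraries only.

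HIF is a pair of proteins, an alpha subunit (HIF1A or EPAS1) and a beta subunit (ARNT). While oxygen is present, prolyl hydroxylases of the EGLN family mark the alpha subunit, the VHL ubiquitin ligase recognises the mark, and the protein is degraded. When oxygen is short the alpha subunit persists, joins ARNT and binds a short DNA core, the hypoxia response element, in target genes. The target genes fall into several roles. *VEGFA* and *ADM* encode secreted factors that act on blood vessels, *SLC2A1* the glucose transporter GLUT1, and *LDHA* a subunit of lactate dehydrogenase, which turns pyruvate into lactate. *PDK1* encodes a kinase that shuts pyruvate out of the mitochondrion by inhibiting pyruvate dehydrogenase, and *BNIP3* a receptor that marks mitochondria for removal. *CA9* encodes a carbonic anhydrase at the cell surface that helps tumour cells control pH, *EGLN3* one of the prolyl hydroxylases and so a feedback on HIF itself, and *NDRG1* a cytoplasmic protein induced by many stresses and by differentiation. *ANKRD37* encodes a small ankyrin repeat protein. HIF activity is set mainly at the level of the alpha subunit protein, which RNA-sequencing does not measure.

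The 4 promoter windows below are shown because *CA9* and *ADM* moved in opposite directions after *TRA2A* KO in LN319, while *LDHA* and *BNIP3* both fell after *TRA2A/B* DKD in the lung lines and after *TRA2B* KO in LN319. Each runs 5′ to 3′ on the strand of the gene from 250 bases before to 50 bases after the start of a RefSeq transcript (GRCh38.p14). Capitals mark the core of the hypoxia response element, ACGTG or GCGTG, read on either strand, and where these letters overlap as CACGTG both strands hold a core.
CA9 (chr9:35673678-35673977, plus strand): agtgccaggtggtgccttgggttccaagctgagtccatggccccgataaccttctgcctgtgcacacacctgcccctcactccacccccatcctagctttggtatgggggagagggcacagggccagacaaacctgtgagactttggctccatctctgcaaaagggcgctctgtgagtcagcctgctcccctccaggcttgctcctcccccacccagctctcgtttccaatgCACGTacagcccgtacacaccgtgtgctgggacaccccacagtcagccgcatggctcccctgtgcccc
ADM (chr11:10304823-10305122, plus strand): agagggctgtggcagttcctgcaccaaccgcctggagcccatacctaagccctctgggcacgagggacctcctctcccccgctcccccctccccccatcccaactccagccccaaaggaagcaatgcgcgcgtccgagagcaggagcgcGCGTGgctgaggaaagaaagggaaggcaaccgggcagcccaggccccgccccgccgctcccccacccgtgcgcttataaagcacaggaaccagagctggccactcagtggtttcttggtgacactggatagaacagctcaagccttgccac
LDHA (chr11:18394313-18394612, plus strand): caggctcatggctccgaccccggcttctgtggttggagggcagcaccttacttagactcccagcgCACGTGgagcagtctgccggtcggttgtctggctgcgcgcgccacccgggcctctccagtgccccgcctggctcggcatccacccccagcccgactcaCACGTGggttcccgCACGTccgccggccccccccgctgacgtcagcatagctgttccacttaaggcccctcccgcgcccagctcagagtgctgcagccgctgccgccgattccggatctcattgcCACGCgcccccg
BNIP3 (chr10:131981874-131982173, minus strand): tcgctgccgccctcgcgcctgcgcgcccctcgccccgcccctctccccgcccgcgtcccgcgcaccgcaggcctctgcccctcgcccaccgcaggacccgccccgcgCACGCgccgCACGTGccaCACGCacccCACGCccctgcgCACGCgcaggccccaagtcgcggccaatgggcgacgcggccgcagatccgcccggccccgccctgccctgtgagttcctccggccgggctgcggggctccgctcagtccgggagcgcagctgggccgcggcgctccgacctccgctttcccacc
The *CA9* window held 1 core, at position -18 from the transcript start, and the *ADM* window 1 core at -101. The *LDHA* window held 6 cores and the *BNIP3* window 6. Of the 10 genes, 8 had at least 1 window in the RefSeq table, 10 windows in all, and 7 of the 8 had a core in a window. *SLC2A1* held 1 core and *ANKRD37* held 3. One of the *PDK1* windows held 2 cores and the other 0, the second *LDHA* window held 1, and the *EGLN3* window held 0. Across the 35116 windows of the table, 48.4% held a core on either strand, 10.1% held at least 3 and 4.4% at least 4. A match is a run of letters and not a binding site, and its absence says only that the letters are not in that window.

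In the Gencode v44 annotation of GRCh38 all 10 are protein-coding genes. *VEGFA* lies on chromosome 6 at 43770184 to 43786487 (plus strand), *ADM* on chromosome 11 at 10305073 to 10307397 (plus) and *LDHA* on the same chromosome at 18394560 to 18408425 (plus). *SLC2A1* lies on chromosome 1 at 42925353 to 42958893 (minus), *PDK1* on chromosome 2 at 172555373 to 172608669 (plus) and *ANKRD37* on chromosome 4 at 185396021 to 185400628 (plus). *NDRG1* lies on chromosome 8 at 133237175 to 133302022 (minus), *CA9* on chromosome 9 at 35673928 to 35681159 (plus), *BNIP3* on chromosome 10 at 131967684 to 131981967 (minus) and *EGLN3* on chromosome 14 at 33924227 to 34462774 (minus). The tables also list 39 pseudogene rows of *BNIP3*, which summed to 0.691 to 21.8% of the *BNIP3* level across libraries, so reads may have been split between them. The 6 pseudogene rows of *LDHA* summed to at most 0.0728% of its level.

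The targeted genes were lower in the libraries labelled for their loss. With CRISPR interference *TRA2A* was at 9.56% of control in A549 *TRA2A* KD and 6.54% in NCI-H23 *TRA2A* KD, and *TRA2B* at 9.68% and 10.6% in the *TRA2B* KDs. In *TRA2A/B* DKD *TRA2A* was at 13.9% and 20.5%, and *TRA2B* at 16.3% and 25.2%. Cas9 cutting left more transcript, with *TRA2A* at 62.9% of control in LN229 Luc *TRA2A* KO and 33.2% in LN319, and *TRA2B* at 65.98% and 35.1% in Luc *TRA2B* KO. TRA2B-OE raised *TRA2B* to 374% in LN229 and 873% in LN319. The paper reports that TRA2A protein was strongly lowered by *TRA2B* overexpression in LN319. The single KDs also raised the other paralog in NCI-H23. There limma called *TRA2B* at 148% of control in *TRA2A* KD (adjusted p = 0.0237) and *TRA2A* at 149% in *TRA2B* KD (adjusted p = 0.0259). In A549 these levels were 118% and 130%, without a call. In the TRA2B-OE *TRA2A* KO libraries of LN229 *TRA2A* stood at 87.2% of its control with overlapping libraries and no call, so the label was not checked by that level. The keratins *KRT8* and *KRT18* were high in both lung lines (control means of 772 to 2804 TPM), but *NKX2-1* and *SFTPB* were below 1 TPM in both. LN229 expressed the glial markers *S100B* (455 TPM) and *SOX2* (81.9 TPM) and LN319 *SOX2* (402 TPM), while *GFAP* was at 2.84 and 2.13 TPM and *OLIG2* at 9.78 and 0.0101 TPM. LN319 also listed the epithelial *CDH1* at 123 TPM and *NKX2-1* at 7.98 TPM. The leukocyte and endothelial genes *PTPRC*, *PECAM1* and *CDH5* had means below 1 TPM in all 4 lines. Each marker list held further genes, *CD68* among them, whose levels are not given here, so this is a partial check of the lines. Replicate 3 of A549 Control KD stood apart from the other A549 libraries, with a median correlation of 0.837 and the largest scaling factor of the line, 1.17, and calls on the 10 genes in A549 that change without it are given with and without it.

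Levels are in TPM, the unit the authors deposited, in which the reads of a transcript are divided by its length and by the sum over the library. Depth cannot be read from TPM, although the paper states a minimum depth for the libraries. Precision is given as the SD of the 3 replicates for levels and as the SE of the fit for log2 fold changes. Tests used limma on log2(TPM + 0.1) after scaling, two-sided, within each cell line, and a change was called at a Benjamini-Hochberg adjusted p under 0.05 over all genes tested. A log2 fold change on this scale understates the change of a gene near 0.1 TPM. All 10 genes could be tested in A549, LN229 and LN319. In NCI-H23 8 could be tested, because *CA9* (listed at 0 in 11 of 12 libraries) and *EGLN3* were too low. Bulk RNA cannot tell fewer cells that use a gene from less RNA of that gene per cell.

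In control cells the most abundant of the 10 transcripts in every line was *LDHA*. A549 held 1315 ± 77.4 TPM (mean ± SD, n = 3), LN229 1108 ± 79.9, NCI-H23 699 ± 16.9 and LN319 366 ± 28.3. The lines differed most in the feedback gene *EGLN3*, which had 60.1 ± 1.88 TPM in LN319 against 6.08 ± 2.74 in A549, 1.09 ± 0.325 in LN229 and 0.361 ± 0.288 in NCI-H23. *VEGFA* was also highest in LN319, at 171 ± 21.8 TPM, against 44.3 ± 8.12 in LN229, 26.1 ± 2.79 in NCI-H23 and 18.2 ± 3.92 in A549. *CA9* was a low transcript, at 6.75 ± 2.35 TPM in LN319 and 1.16 ± 1.07 in A549. *ADM* was at 32.9 ± 1.44 TPM in LN319 and between 47.0 and 52.1 in the means of the other 3 lines, which overlapped. The tables of different lines were made separately, so these levels are a description without a test.

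Across the 14 comparisons of a perturbation with its own control, 134 tests of the 10 genes gave 29 calls, 9 higher and 20 lower. The genes did not move as a block. *VEGFA*, *ADM*, *NDRG1* and *SLC2A1* were each called higher in at least 1 comparison and lower in another. *LDHA* was called lower in 4 comparisons, *BNIP3* in 3, and *CA9*, *PDK1* and *EGLN3* in 2 each, with none of these called higher, while *ANKRD37* was called in none. In 7 of the 14 comparisons limma called 0 of the genes, and in these it called 0.196 to 3.79% of all genes. In the other comparisons it called 2.77 to 43.2% of all genes, so the counts are to be read beside these shares. Shares in each direction are given below for the comparisons with the most calls.

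**Figure D1:**
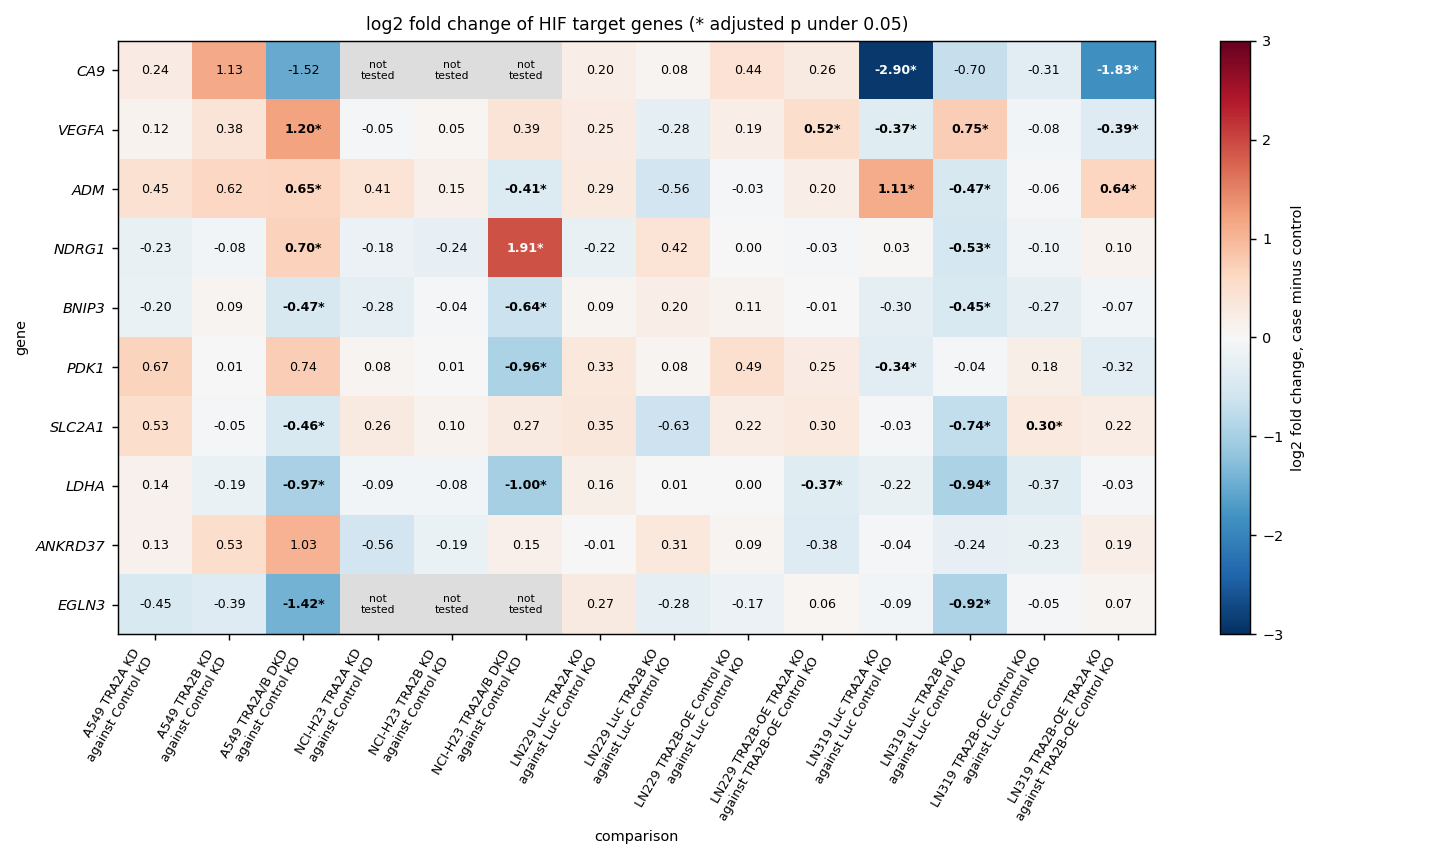
Log2 fold change (color, case minus control) of the 10 HIF target genes (vertical axis) in the 14 comparisons (horizontal axis), with an asterisk for an adjusted p under 0.05. The calls gather in the *TRA2A/B* DKD of both lung lines and in the LN319 comparisons, where 2.77 to 43.2% of all genes were called. Single columns hold both directions, as in A549 *TRA2A/B* DKD with *VEGFA* at 1.20 and *EGLN3* at -1.42.

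In A549, *TRA2A/B* DKD raised the secreted factors and *NDRG1* and lowered *LDHA*, *SLC2A1*, *BNIP3* and *EGLN3*. Of the 10 genes 3 rose and 4 fell, against 30.6% of all genes called (14.3% higher and 16.3% lower). *VEGFA* stood at 19.8, 21.1 and 13.8 TPM in the Control KD replicates and 37.2, 46.2 and 48.9 TPM in the DKD replicates. Every DKD library lay above every control library, a log2 fold change of 1.20 ± 0.25 (SE, adjusted p = 0.00399). *ADM* stood at 52.02, 61.6 and 35.4 TPM in Control KD and 73.4, 80.9 and 86.5 TPM in DKD, a log2 fold change of 0.65 ± 0.22 (SE, adjusted p = 0.0468). Its groups did not overlap either, but the call was lost when any 1 of the DKD libraries was left out, and without Control KD replicate 3 the log2 fold change was 0.33 (adjusted p = 0.0393). *NDRG1* rose from 23.7, 24.2 and 38.8 TPM to 46.5, 51.2 and 47.9 TPM, a log2 fold change of 0.70 ± 0.13 (SE, adjusted p = 0.00255). The highest control value, in replicate 3, remained below the lowest DKD value.

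The falls in A549 *TRA2A/B* DKD were led in abundance by *LDHA*. It had 1376, 1341 and 1228 TPM in Control KD and 695, 716 and 718 TPM in DKD, which is 53.98% of the control mean and a log2 fold change of -0.97 ± 0.12 (SE, adjusted p = 0.000184). The glucose transporter *SLC2A1* had 106, 115 and 104 TPM in control and 89.9, 82.9 and 77.6 TPM in DKD, a log2 fold change of -0.46 ± 0.11 (SE, adjusted p = 0.009105). *BNIP3* went from 41.04, 43.2 and 40.3 TPM to 31.96, 29.8 and 33.3 TPM, with a log2 fold change of -0.47 ± 0.10 (SE, adjusted p = 0.00657). In all 3 genes the groups did not overlap, but the calls of *SLC2A1* and *BNIP3* were lost when only the groups compared were fitted. *EGLN3*, the oxygen-sensing hydroxylase, had 5.96, 3.398 and 8.88 TPM in control and 1.98, 2.19 and 2.31 TPM in DKD, the largest fall of a called gene in this line at -1.42 ± 0.26 (SE, adjusted p = 0.00228). Its control libraries were spread over more than the distance between the groups.

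The remaining 3 genes of A549 did not pass the test after *TRA2A/B* DKD. *PDK1* had 2.01, 1.92 and 3.17 TPM in control and 4.14, 4.71 and 3.66 TPM in DKD, without overlap (log2 fold change 0.74 ± 0.28 SE, adjusted p = 0.0686). *ANKRD37* had 2.48, 2.81 and 1.98 and 6.22, 3.01 and 7.94 TPM, also without overlap, with a log2 fold change of 1.03 ± 0.37 (SE, adjusted p = 0.0578). *CA9* had 1.38, 2.11 and 0 TPM in control and 0.244, 0 and 0.394 TPM in DKD, and with a library listed at 0 in each group its log2 fold change of -1.52 had an SE of 1.12. Without Control KD replicate 3, the control listed at 0, *CA9* was called at -2.93 (adjusted p = 0.0132) and *PDK1* at 0.87 (adjusted p = 0.0414), so that 9 of the 10 genes were called. Groups did not overlap in 9 of the 10 genes, against 41.5% of all genes. The summed level of the 10 genes was 1475 to 1631 TPM in Control KD and 987 to 1026 TPM in DKD, a sum in which *LDHA* is the largest part.

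In NCI-H23, *TRA2A/B* DKD gave the largest log2 rise among the 29 calls, in *NDRG1*, and a fall of *LDHA*. Of the 8 genes tested 1 rose and 4 fell, against 43.2% of all genes called (20% higher and 23.2% lower). *NDRG1* stood at 10.7, 15.1 and 13.6 TPM in Control KD and 52.8, 54.8 and 56.5 TPM in DKD, or 416% of the control mean. The 3 DKD libraries lay close together and far above the controls, a log2 fold change of 1.91 ± 0.15 (SE, adjusted p = 3.65e-06). *LDHA* stood at 699, 716 and 682 TPM in control and 359.9, 415 and 399 TPM in DKD, a log2 fold change of -0.995 ± 0.07 (SE, adjusted p = 2.35e-06). *PDK1*, whose product holds pyruvate back from the mitochondrion, fell from 7.16, 8.18 and 6.47 TPM to 3.41, 4.19 and 4.84 TPM, a log2 fold change of -0.96 ± 0.14 (SE, adjusted p = 0.000276). *BNIP3* fell from 27.1, 29.9 and 23.97 TPM to 19.01, 17.7 and 20.99 TPM, a log2 fold change of -0.64 ± 0.10 (SE, adjusted p = 0.000439). In these 4 genes no DKD library reached the range of the controls.

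*ADM* was called lower in NCI-H23 *TRA2A/B* DKD but its groups overlapped in TPM. The controls held 45.1, 59.99 and 51.1 TPM and the DKD libraries 46.3, 35.9 and 48.8 TPM, a log2 fold change of -0.41 ± 0.11 (SE, adjusted p = 0.0133) after scaling. The call was lost in 3 of the alternatives tried. *VEGFA* had 23.1, 28.5 and 26.8 TPM in control and 41.5, 30.7 and 43.1 TPM in DKD, higher in every DKD library but not past the test, with a log2 fold change of 0.39 ± 0.17 (SE, adjusted p = 0.0926). *SLC2A1* at 16.1, 26.4 and 26.3 against 30.4, 30.99 and 28.9 TPM gave 0.27 ± 0.16 (SE, adjusted p = 0.199), and *ANKRD37* a log2 fold change of 0.15. Of the 8 genes tested 6 did not overlap between groups, against 52.1% of all genes. The summed level of the 10 genes was 833 to 889 TPM in Control KD and 561 to 609 TPM in DKD.

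**Figure D2:**
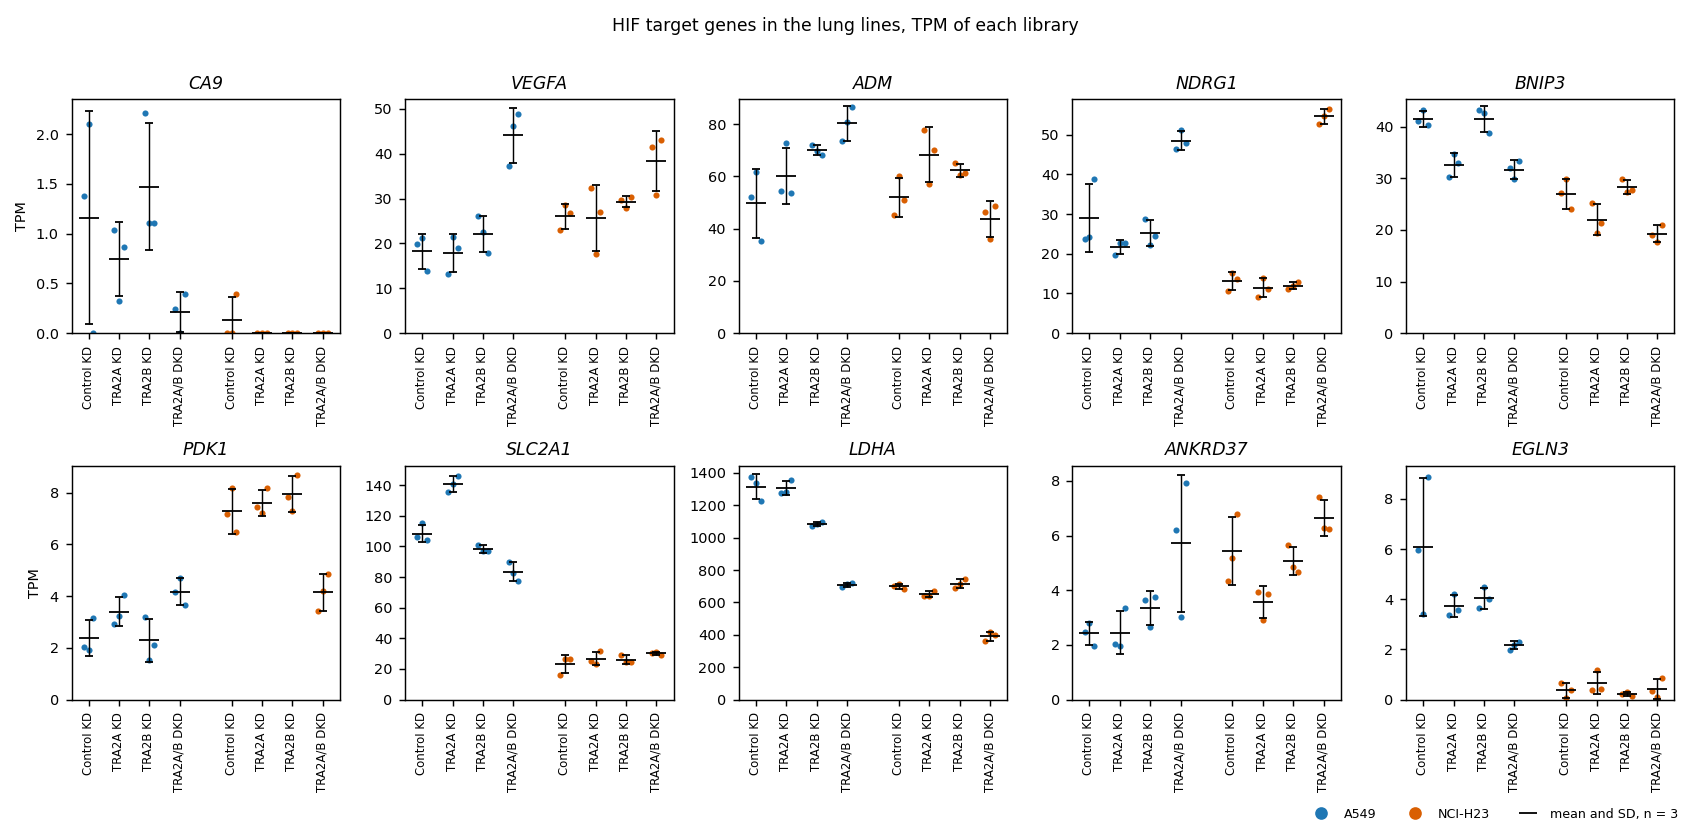
TPM (vertical axes, from 0) of the 10 HIF target genes in the 24 libraries of A549 and NCI-H23, 1 panel per gene and 1 column per condition, with points for libraries and bars for the mean and SD of 3. *LDHA* is lowest in the *TRA2A/B* DKD of both lines, at means of 709.8 and 391 TPM, and *NDRG1* is highest there, at 48.5 and 54.7 TPM.

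The loss of 1 paralog in the lung lines left the genes without a call. In A549 limma called 0 of 10 in *TRA2A* KD (2 at an unadjusted p under 0.05) and 0 of 10 in *TRA2B* KD (1), against 0.207% and 0.341% of all genes called. In NCI-H23 it called 0 of 8 in *TRA2A* KD (3 at an unadjusted p under 0.05) and 0 of 8 in *TRA2B* KD (0), against 0.976% and 0.196% of all genes. With so few genes called anywhere, a count of 0 is near the background. The smallest adjusted p among them belonged to *SLC2A1* in A549 *TRA2A* KD, at 136, 141 and 146 TPM against 106, 115 and 104 TPM in control, a log2 fold change of 0.53 ± 0.11 (SE, adjusted p = 0.112). *ADM* was at 71.9, 69.8 and 68.1 TPM in A549 *TRA2B* KD (log2 fold change 0.62 ± 0.22 SE, adjusted p = 0.306) and at 77.8, 56.9 and 70.3 TPM in NCI-H23 *TRA2A* KD (log2 fold change 0.41 ± 0.11 SE, adjusted p = 0.139).

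Whether the double loss differed from the sum of both single losses was tested directly, as the log2 fold change of *TRA2A/B* DKD minus those of *TRA2A* KD and *TRA2B* KD. In A549 3 of the 10 genes passed this test, against 14.7% of all genes. *NDRG1* lay above the sum by 1.01 ± 0.19 (SE, adjusted p = 0.00598) on the log2 scale. The single KDs had held *NDRG1* at 19.6, 22.8 and 22.7 TPM and 28.8, 22.2 and 24.6 TPM. *SLC2A1*, with 0.53 in *TRA2A* KD and -0.46 in DKD, lay below the sum, at -0.93 ± 0.15 (SE, adjusted p = 0.00304). *LDHA* lay below the sum as well, at -0.92 ± 0.17 (SE, adjusted p = 0.006301), but with quantile normalization the value was -0.36 and the call was lost. *VEGFA* was above the sum without passing, at 0.71 ± 0.35 (SE, adjusted p = 0.199), and without Control KD replicate 3 it was called at 0.99 (adjusted p = 0.0237), which made 4 of 10. In NCI-H23 5 of 8 passed, against 21% of all genes. *NDRG1* exceeded the sum by 2.33 ± 0.21 (SE, adjusted p = 5.62e-05) and *ANKRD37* by 0.91 ± 0.24 (SE, adjusted p = 0.0221). The *ANKRD37* call was lost in 4 of 20 alternatives, without a filter on low values and without *TRA2B* KD replicate 2, *TRA2B* KD replicate 3 or DKD replicate 1. Below the sum were *PDK1* at -1.05 ± 0.20 (SE, adjusted p = 0.00384), *ADM* at -0.97 ± 0.16 (SE, adjusted p = 0.00193) and *LDHA* at -0.83 ± 0.10 (SE, adjusted p = 0.000384). The tests of DKD and of the sum use the same control and DKD libraries and are not independent of each other.

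In LN319 the loss of *TRA2A* alone moved several of the genes, *CA9* and *ADM* furthest. After Luc *TRA2A* KO 1 gene rose and 3 fell, against 14.3% of all genes called (6.82% higher and 7.44% lower). *CA9* stood at 9.28, 6.37 and 4.62 TPM in Luc Control KO and 0.537, 1.303 and 0.6297 TPM in Luc *TRA2A* KO. The highest KO library was below the lowest control, and the log2 fold change was -2.90 ± 0.38 (SE, adjusted p = 0.000529). *ADM* stood at 34.4, 32.9 and 31.5 TPM in control and 66.3, 65.2 and 77.8 TPM in the KO, 212% of the control mean. Its log2 fold change was 1.11 ± 0.10 (SE, adjusted p = 6.17e-05). The other secreted factor, *VEGFA*, had 169, 194 and 150.1 TPM in control and 137, 135 and 113 TPM in the KO, a log2 fold change of -0.37 ± 0.09 (SE, adjusted p = 0.01602). *PDK1* went from 8.003, 8.51 and 7.61 TPM to 7.14, 5.82 and 5.57 TPM, with -0.34 ± 0.09 (SE, adjusted p = 0.0281). The groups of both did not overlap, but the *VEGFA* call was lost in 3 and the *PDK1* call in 5 of the alternatives. *BNIP3* at 92.5, 88.9 and 86.02 against 69.2, 70.8 and 71.6 TPM did not pass (log2 fold change -0.30 ± 0.10 SE, adjusted p = 0.0541) although the groups did not overlap, which held for 6 of the 10 genes and 32.2% of all genes.

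The loss of *TRA2B* in LN319 gave another pattern, a rise of *VEGFA* and a fall of most of the rest. In Luc *TRA2B* KO 1 gene rose and 6 fell, against 42.6% of all genes called (18.6% higher and 24% lower). *VEGFA* had 314, 291 and 318 TPM, above all controls, and a log2 fold change of 0.75 ± 0.09 (SE, adjusted p = 7.47e-05). *ADM* had 23.4, 29.2 and 24.5 TPM, below all controls, with -0.47 ± 0.10 (SE, adjusted p = 0.00261). The directions of these 2 secreted factors were thus the reverse of those after *TRA2A* KO. *LDHA* fell from 381, 333 and 383 TPM to 204, 199 and 212 TPM, a log2 fold change of -0.94 ± 0.12 (SE, adjusted p = 0.000112). *EGLN3* fell from 61.5, 57.97 and 60.8 TPM to 35.2, 35.2 and 32.2 TPM, a log2 fold change of -0.92 ± 0.12 (SE, adjusted p = 0.000118). *SLC2A1*, the glucose transporter, fell from 115, 135 and 107 TPM to 71.7, 83.3 and 73.7 TPM, a log2 fold change of -0.74 ± 0.07 (SE, adjusted p = 2.20e-05).

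*NDRG1* and *BNIP3* completed the falls in LN319 Luc *TRA2B* KO. *NDRG1* had 18.7, 19.4 and 19.8 TPM in control and 12.6, 14.2 and 16.6 TPM in the KO, a log2 fold change of -0.53 ± 0.11 (SE, adjusted p = 0.00227). *BNIP3* had 68.3, 68.6 and 74.8 TPM in the KO and a log2 fold change of -0.45 ± 0.10 (SE, adjusted p = 0.00243). Groups did not overlap in 7 of the 10 genes, which were the 7 called ones, against 55.3% of all genes. *CA9*, at 3.26, 3.699 and 6.43 TPM, overlapped its controls and did not pass (log2 fold change -0.70 ± 0.38 SE, adjusted p = 0.163). Mitochondrially encoded transcripts took 18.3 to 20.6% of TPM in these KO libraries and 12.1 to 12.8% in their controls, and the part of this in the results was not tested.

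Overexpression of *TRA2B* by itself moved 1 of the 10 genes in LN319, against 4.31% of all genes. *SLC2A1* had 164, 157 and 142 TPM in TRA2B-OE Control KO against 115, 135 and 107 TPM in Luc Control KO. All overexpressing libraries lay above the Luc ones, with 0.30 ± 0.07 (SE, adjusted p = 0.0414) on the log2 scale, and the call was lost in 6 of 14 alternatives, without a filter on low values, when only the groups compared were fitted, and without Luc Control KO replicate 1 or 3 or TRA2B-OE Control KO replicate 1 or 2. On the TRA2B-OE background *TRA2A* KO moved *CA9*, *VEGFA* and *ADM*, 3 of 10 against 2.77% of all genes. *CA9* had 4.42, 4.55 and 8.53 TPM in control and 1.52, 1.104 and 1.73 TPM in the KO, a log2 fold change of -1.83 ± 0.38 (SE, adjusted p = 0.0283). *VEGFA* had 171, 157 and 185 TPM and 133, 131 and 112 TPM, or -0.39 ± 0.09 (SE, adjusted p = 0.0394). For *ADM* the values were 36.8, 35.2 and 29.1 TPM and 50.5, 51.5 and 49.2 TPM, or 0.64 ± 0.10 (SE, adjusted p = 0.0102). The groups of these genes did not overlap. Their directions were those of the Luc background, from libraries that the Luc comparison did not use. The *CA9* call was lost in 5 and the *VEGFA* call in 8 of the alternatives tried, and the *ADM* call in 1.

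The size of the *TRA2A* KO response with TRA2B-OE against that with Luc was tested as a difference of differences. In LN319 limma called 0 of the 10 genes (2 at an unadjusted p under 0.05), against 0.0207% of all genes. The difference for *CA9* was 1.06 ± 0.54 (SE, adjusted p = 0.681) and for *ADM* -0.47 ± 0.14 (SE, adjusted p = 0.449), each towards a smaller response with TRA2B-OE but neither past the test. In LN229 it called 0 of 10 (1 at an unadjusted p under 0.05), against 0% of all genes. Since nearly no gene passed in either line, these data do not tell whether the responses of the 10 genes differed between backgrounds.

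In LN229 few of the genes passed a test. Limma called 0 of 10 in Luc *TRA2A* KO (2 at an unadjusted p under 0.05) against 3.79% of all genes, 0 of 10 in Luc *TRA2B* KO (6) against 0.557%, and 0 of 10 in TRA2B-OE Control KO (1) against 1.03%. In TRA2B-OE *TRA2A* KO it called 2 of 10 against 6.05%. *VEGFA* had 45.4, 53.6 and 56.9 TPM in TRA2B-OE Control KO and 70.2, 79.7 and 78.1 TPM in TRA2B-OE *TRA2A* KO, a log2 fold change of 0.52 ± 0.13 (SE, adjusted p = 0.0365). *LDHA* had 1067, 1196 and 1182 TPM and 978, 905 and 852 TPM, a log2 fold change of -0.37 ± 0.08 (SE, adjusted p = 0.0206). The groups of both did not overlap, but the *VEGFA* call was lost in 6 and the *LDHA* call in 7 of 14 alternatives. Among these were no filter on low values, the fit of only the groups compared, and leaving out TRA2B-OE Control KO replicate 2 or TRA2B-OE *TRA2A* KO replicate 2 or 3, for both genes. The *VEGFA* call was also lost without TRA2B-OE Control KO replicate 1, and the *LDHA* call without its replicate 3 and with quantile normalization. *TRA2A* itself was at 87.2% of control in these libraries.

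The Luc *TRA2B* KO comparison of LN229 turned on 1 control library. *ADM* stood at 37.04, 51.9 and 52.1 TPM in Luc Control KO and 32.3, 33.1 and 32.1 TPM in Luc *TRA2B* KO, and *SLC2A1* at 105, 180.3 and 185 TPM and 94.9, 107 and 102 TPM. *NDRG1* had 41.1, 28.2 and 30.7 TPM in control and 44.4, 46.2 and 45.8 TPM in the KO, and *VEGFA* 35.05, 47.8 and 50.1 TPM and 34.9, 38.8 and 38.1 TPM. In each of these genes replicate 1 of Luc Control KO lay nearer to the KO libraries than the other controls did. With that library the log2 fold changes were -0.56 ± 0.12 (SE, adjusted p = 0.0575) for *ADM*, -0.63 ± 0.19 (SE, adjusted p = 0.0999) for *SLC2A1*, 0.42 ± 0.13 (SE, adjusted p = 0.107) for *NDRG1* and -0.28 ± 0.13 (SE, adjusted p = 0.213) for *VEGFA*. Without it all 4 were called, *ADM* at -0.73 (adjusted p = 0.00118), *SLC2A1* at -0.91 (0.00181), *NDRG1* at 0.57 (0.0065) and *VEGFA* at -0.45 (0.0135). The groups did not overlap in 4 of the 10 genes with all libraries, against 23.6% of all genes. Replicate 1 was the lowest *VEGFA* library in every LN229 condition, not in Luc Control KO alone. With a block for the replicate number *ADM* and *SLC2A1* were called with all libraries.

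**Figure D3:**
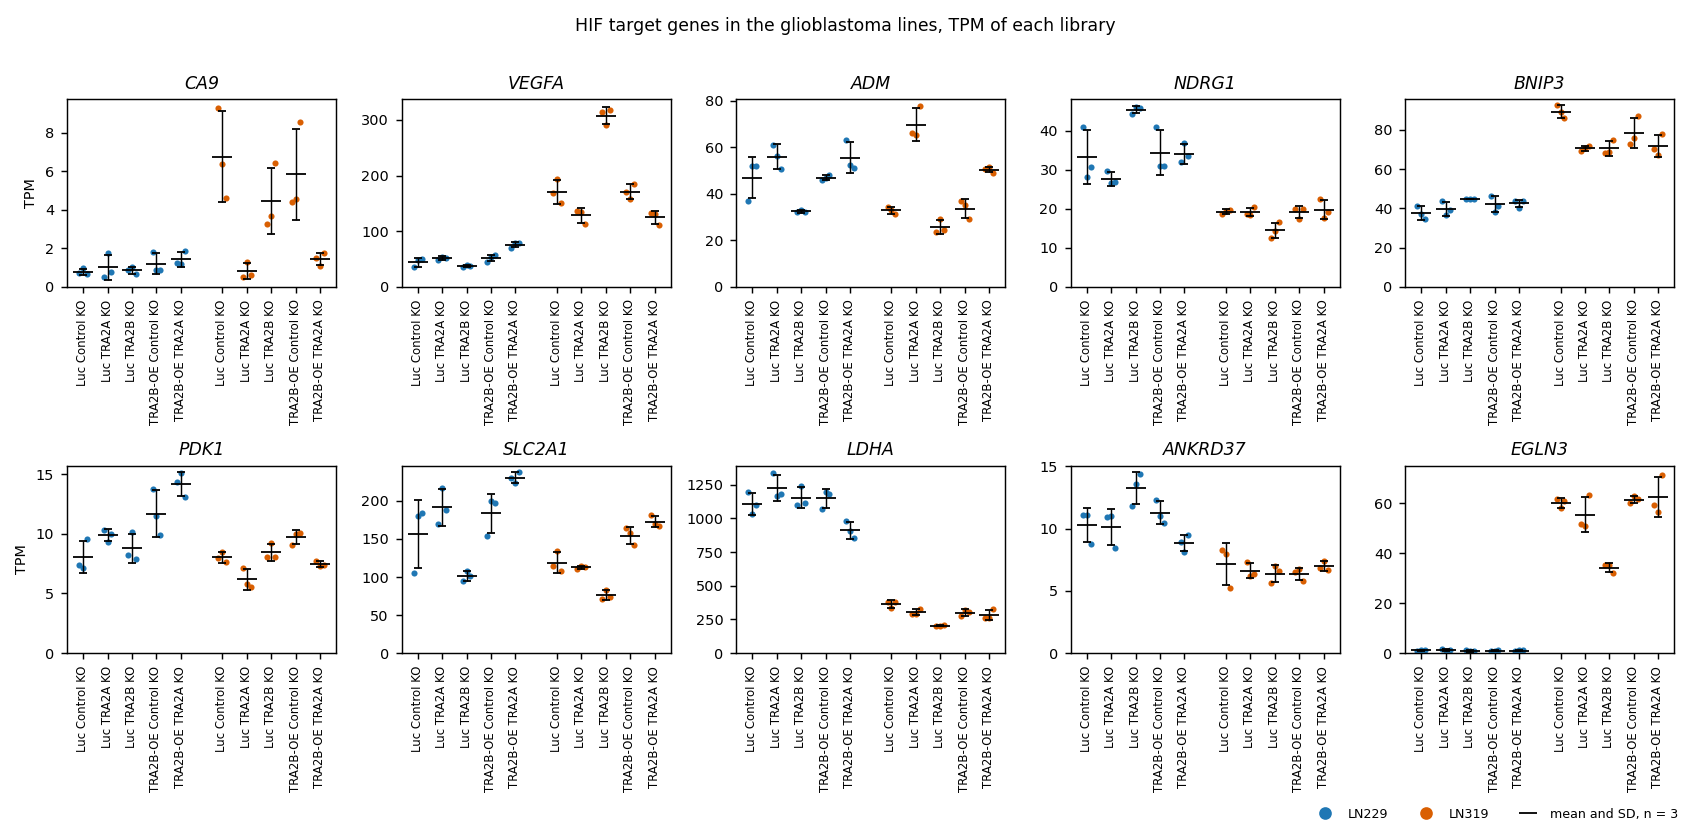
TPM (vertical axes, from 0) of the 10 HIF target genes in the 30 libraries of LN229 and LN319, 1 panel per gene and 1 column per condition, with points for libraries and bars for the mean and SD of 3. In LN319 *ADM* is highest in Luc *TRA2A* KO, at a mean of 69.8 TPM, and *VEGFA* in Luc *TRA2B* KO, at 308 TPM, and replicate 1 of LN229 Luc Control KO sits low in *SLC2A1* at 104.8 TPM.

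Loss of *TRA2A* was also set against loss of *TRA2B* directly, a contrast added after the values of the genes had been seen. It uses no control library. In LN319 8 of the 10 genes differed, against 47.2% of all genes. *ADM*, at 1.58 ± 0.10 (SE, adjusted p = 7.05e-07) on the log2 scale, *EGLN3*, at 0.83 ± 0.12 (SE, adjusted p = 0.000111), and *LDHA*, at 0.72 ± 0.12 (SE, adjusted p = 0.000363), were higher after *TRA2A* KO than after *TRA2B* KO. So were *SLC2A1* at 0.71 ± 0.07 (SE, adjusted p = 9.93e-06) and *NDRG1* at 0.56 ± 0.11 (SE, adjusted p = 0.001196). *CA9* was lower at -2.20 ± 0.38 (SE, adjusted p = 0.000445), as were *VEGFA* at -1.12 ± 0.09 (SE, adjusted p = 2.18e-06) and *PDK1* at -0.31 ± 0.09 (SE, adjusted p = 0.0162). In LN229 4 of 10 differed, against 34.1% of all genes. *SLC2A1* at 0.98 ± 0.19 (SE, adjusted p = 0.00235), *ADM* at 0.85 ± 0.12 (SE, adjusted p = 0.000715) and *VEGFA* at 0.53 ± 0.13 (SE, adjusted p = 0.00837) were higher after *TRA2A* KO, and *NDRG1* was lower at -0.64 ± 0.13 (SE, adjusted p = 0.00307). *ADM* and *SLC2A1* were thus higher after the loss of *TRA2A* than of *TRA2B* in both glioma lines, while *VEGFA* and *NDRG1* had opposite signs in the 2 lines. The LN229 count was near the share of all genes, and this contrast was not repeated under the alternatives or with libraries left out. In the lung lines A549 *SLC2A1* alone passed, at 0.58 ± 0.11 (SE, adjusted p = 0.0366), against 0.811% of all genes, and in NCI-H23 0 of 8 passed, against 1.9%.

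The regulators of HIF were followed as a list of 12 genes. In A549 *TRA2A/B* DKD 2 of 11 tested rose and 3 fell, against 14.3% of all genes higher and 16.3% lower. *CITED2*, whose product competes with HIF1A for the coactivators EP300 and CREBBP, stood at 10.9, 10.9 and 9.13 TPM in control and 43.2, 45.8 and 44.4 TPM in DKD, a log2 fold change of 2.02 ± 0.18 (SE, adjusted p = 2.07e-05). *HIF1A* stood at 149, 161 and 255 TPM in control and 108, 96.6 and 92.8 TPM in DKD, with -0.97 ± 0.12 (SE, adjusted p = 0.0001597). Both moved without overlap, although the *HIF1A* controls were widely spread, replicate 3 being the highest. The hydroxylase *EGLN2* fell (-0.43, adjusted p = 0.00212). The hydroxylase *EGLN1* also fell (-0.54, adjusted p = 0.0119) and the coactivator *CREBBP* rose (0.74, adjusted p = 0.0177), both with overlapping libraries. The *CREBBP* call was lost in 5 of 14 alternatives, among them without Control KD replicate 1 or 2 and without DKD replicate 1 or 2, and the *EGLN1* call in 2.

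In NCI-H23 *TRA2A/B* DKD 3 of 11 tested regulators rose and 2 fell, against 20% of all genes higher and 23.2% lower, so that 5 of 11 called was near the 43.2% of all genes. The alpha subunit *EPAS1* was at a log2 fold change of 0.69 ± 0.12 (SE, adjusted p = 0.00111), the beta subunit *ARNT* at 0.41 ± 0.07 (SE, adjusted p = 0.00112) and *VHL* at 0.24 ± 0.08 (SE, adjusted p = 0.0284). *EGLN1* fell by 0.67 (adjusted p = 0.000486) and *EGLN2* fell by 0.34 (adjusted p = 0.0163), as in A549. The calls of *VHL* and *EGLN2* were each lost in 6 of 14 alternatives, with adjusted p up to 0.133 and 0.0727. *HIF1A* was at 50.2, 51.3 and 54.98 TPM against 43.6, 43.7 and 45.02 TPM, with a log2 fold change of 0.08 ± 0.10 (SE, adjusted p = 0.521). In LN319 Luc *TRA2B* KO 0 of 12 rose and 3 fell, against 18.6% of all genes higher and 24% lower, *EGLN1* at -0.48 ± 0.10 (SE, adjusted p = 0.002002), *HIF1A* at -0.38 ± 0.05 (SE, adjusted p = 0.000132) and *EGLN2* at -0.21 ± 0.04 (SE, adjusted p = 0.00195). With quantile normalization *HIF1A* was at -0.21 and *EGLN2* at -0.07, and the *EGLN2* call was lost, as it was on the TPM as deposited. *TRA2A* KO moved only *CITED2* of the list, in each of the glioma lines and backgrounds. This was 1 of 12 in LN319, against 14.3% of all genes called with Luc and 2.77% with TRA2B-OE. In LN229 it was 1 of 11, against 3.79% with Luc and 6.05% with TRA2B-OE. In LN319 *CITED2* went from 40.5, 35.4 and 39.9 TPM to 67.3, 62.1 and 76.9 TPM with Luc (log2 fold change 0.87 ± 0.10 SE, adjusted p = 0.000216) and changed by 0.58 ± 0.10 (SE, adjusted p = 0.0126) with TRA2B-OE. In LN229 it changed by 0.42 ± 0.08 (SE, adjusted p = 0.0158) with Luc and 0.51 ± 0.08 (SE, adjusted p = 0.00346) with TRA2B-OE. The call of *CITED2* was lost in at least 1 alternative in 3 of these 4 comparisons, all but LN319 with Luc.

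Most genes of a glycolysis list, 19 genes without *LDHA* itself, fell in the same 3 comparisons as *LDHA* in the lung lines and LN319. In A549 *TRA2A/B* DKD 13 of 18 tested fell and 0 rose, against 16.3% of all genes lower and 14.3% higher, with a list median of -0.60 against 0.03 over all genes, and all 18 had a negative log2 fold change. Without Control KD replicate 3, 17 fell. The lactate exporter *SLC16A3* changed by -0.92 ± 0.10 (SE, adjusted p = 8.23e-05), the isomerase *GPI* by -0.87 ± 0.14 (SE, adjusted p = 0.0007799) and the enolase *ENO2* by -1.17 ± 0.18 (SE, adjusted p = 0.0006595). In NCI-H23 *TRA2A/B* DKD 15 of 19 fell and 1 rose, against 23.2% of all genes lower and 20% higher, with a median of -0.41 against 0.02. *SLC16A3* fell from 30.5 ± 0.878 TPM (mean ± SD, n = 3) to 8.41 ± 0.934 TPM, a log2 fold change of -2.00 ± 0.09 (SE, adjusted p = 9.44e-08). *ENO2* changed by -1.24 ± 0.28 (SE, adjusted p = 0.00441) and the aldolase *ALDOC* by 1.09 ± 0.34 (SE, adjusted p = 0.0233), a call lost in 4 of 13 alternatives. In LN319 Luc *TRA2B* KO 12 of 19 fell and 3 rose, against 24% of all genes lower and 18.6% higher, with a median of -0.43 against 0.02. *GAPDH* changed by -0.83 ± 0.15 (SE, adjusted p = 0.000852), *ALDOA* by -0.81 ± 0.13 (SE, adjusted p = 0.000337) and *ENO1* by -0.80 ± 0.11 (SE, adjusted p = 0.000147). With quantile normalization these were -0.36, -0.33 and -0.32, each still called. *TRA2A* KO in LN319 lowered 1 of 19, *SLC16A3* (log2 fold change -0.79 ± 0.17 SE, adjusted p = 0.0101), and raised 0, against 7.44% of all genes lower and 6.82% higher. In LN229 limma called 1 gene of the list in all, *PFKFB3*, lower in TRA2B-OE *TRA2A* KO (log2 fold change -0.53 ± 0.13 SE, adjusted p = 0.0327), a call lost in 7 of 14 alternatives. This was 1 of 19 tested, near the 6.05% of all genes called there.

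Elsewhere 1 gene of the glycolysis list passed in A549 *TRA2A* KD, *PFKFB3* at 0.49 ± 0.08 (SE, adjusted p = 0.0338), and 1 in NCI-H23 *TRA2A* KD, the glucose transporter *SLC2A3* at -0.39 ± 0.06 (SE, adjusted p = 0.0145). *SLC2A3* also passed in LN319 TRA2B-OE Control KO, at 0.49 ± 0.10 (SE, adjusted p = 0.0191). These were 1 of 18 tested in A549, against 0.207% of all genes called, and 1 of 19 in NCI-H23, against 0.976%. In LN319 it was 1 of 19, against 4.31%. The *PFKFB3* call was lost in 10 of 14 alternatives, with adjusted p up to 0.743, and each *SLC2A3* call in 4 of 14.

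A list of 31 other known HIF targets held both directions. In A549 *TRA2A/B* DKD 14 of 30 tested rose and 5 fell, against 14.3% of all genes higher and 16.3% lower, with a median of 0.51 against 0.03 over all genes. *MXI1*, which encodes an antagonist of MYC, changed by 2.86 ± 0.47 (SE, adjusted p = 0.00102), the secreted glycoprotein *STC2* by 2.85 ± 0.41 (SE, adjusted p = 0.0004697) and the glycogen regulator *PPP1R3C* by 2.07 ± 0.13 (SE, adjusted p = 2.36e-06). In NCI-H23 *TRA2A/B* DKD 11 of 28 rose and 8 fell, against 20% of all genes higher and 23.2% lower, with a median of 0.36 against 0.02. The heme oxygenase *HMOX1*, which many stresses besides low oxygen induce, went from 34.9 ± 3.77 TPM to 851 ± 109 TPM, a log2 fold change of 4.45 ± 0.08 (SE, adjusted p = 3.57e-10). The nuclear receptor *RORA* changed by 2.61 ± 0.70 (SE, adjusted p = 0.0117). In LN319 Luc *TRA2B* KO 3 of 31 rose and 11 fell, against 18.6% of all genes higher and 24% lower, with a median of -0.11 against 0.02. The collagen cross-linking enzyme *LOX* changed by -1.15 ± 0.17 (SE, adjusted p = 0.000234), the adenylate kinase *AK4* by -0.80 ± 0.08 (SE, adjusted p = 3.18e-05) and *RORA* by 0.92 ± 0.20 (SE, adjusted p = 0.00293).

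After *TRA2A* KO in LN319 7 of 31 other targets rose and 3 fell, against 6.82% of all genes higher and 7.44% lower, with a median of 0.01 against 0.01. *STC2* at 1.11 ± 0.16 (SE, adjusted p = 0.000741), *HMOX1* at 0.98 ± 0.08 (SE, adjusted p = 2.38e-05) and *RORA* at 0.78 ± 0.20 (SE, adjusted p = 0.0232) rose, the *RORA* call being lost in 5 of 13 alternatives. With TRA2B-OE 3 of 31 rose and 0 fell, against 2.77% of all genes called, among them *IGFBP3* at 0.63 ± 0.07 (SE, adjusted p = 0.00293) and *JMJD6* at 0.32 ± 0.06 (SE, adjusted p = 0.0219), whose call was lost in 5 of 14 alternatives. In LN229 6 of 29 rose and 2 fell after Luc *TRA2A* KO, against 3.79% of all genes called, and 7 rose and 2 fell after TRA2B-OE *TRA2A* KO, against 6.05%. In the Luc comparison *STC2* was at 1.69 ± 0.42 (SE, adjusted p = 0.0469) and the transferrin receptor *TFRC* at 0.53 ± 0.10 (SE, adjusted p = 0.0192). The *STC2* call was lost in 6 of 14 alternatives, with adjusted p up to 0.238, and the *TFRC* call in 4, with adjusted p up to 0.170. Both were lost without Luc Control KO replicate 1 and without Luc *TRA2A* KO replicate 2 or 3, and *STC2* also without Luc *TRA2A* KO replicate 1. With TRA2B-OE *ANGPTL4*, an inhibitor of lipoprotein lipase, was at 1.54 ± 0.31 (SE, adjusted p = 0.0149) and *HMOX1* at 0.68 ± 0.12 (SE, adjusted p = 0.00736), calls lost in 3 and 1 of 14 alternatives. *HMOX1* at 0.67 ± 0.11 (SE, adjusted p = 0.0405) passed in A549 *TRA2B* KD, a call lost in 7 of 14 alternatives, with adjusted p up to 0.402. It was 1 of 30 tested, against 0.341% of all genes called. In LN319 TRA2B-OE Control KO *BHLHE40* at 0.27 ± 0.05 (SE, adjusted p = 0.0201) and *RIOK3* at 0.29 ± 0.08 (SE, adjusted p = 0.0497) passed, calls lost in 5 and 7 of 14 alternatives. They were 2 of 31 tested, against 4.31% of all genes called.

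**Figure D4:**
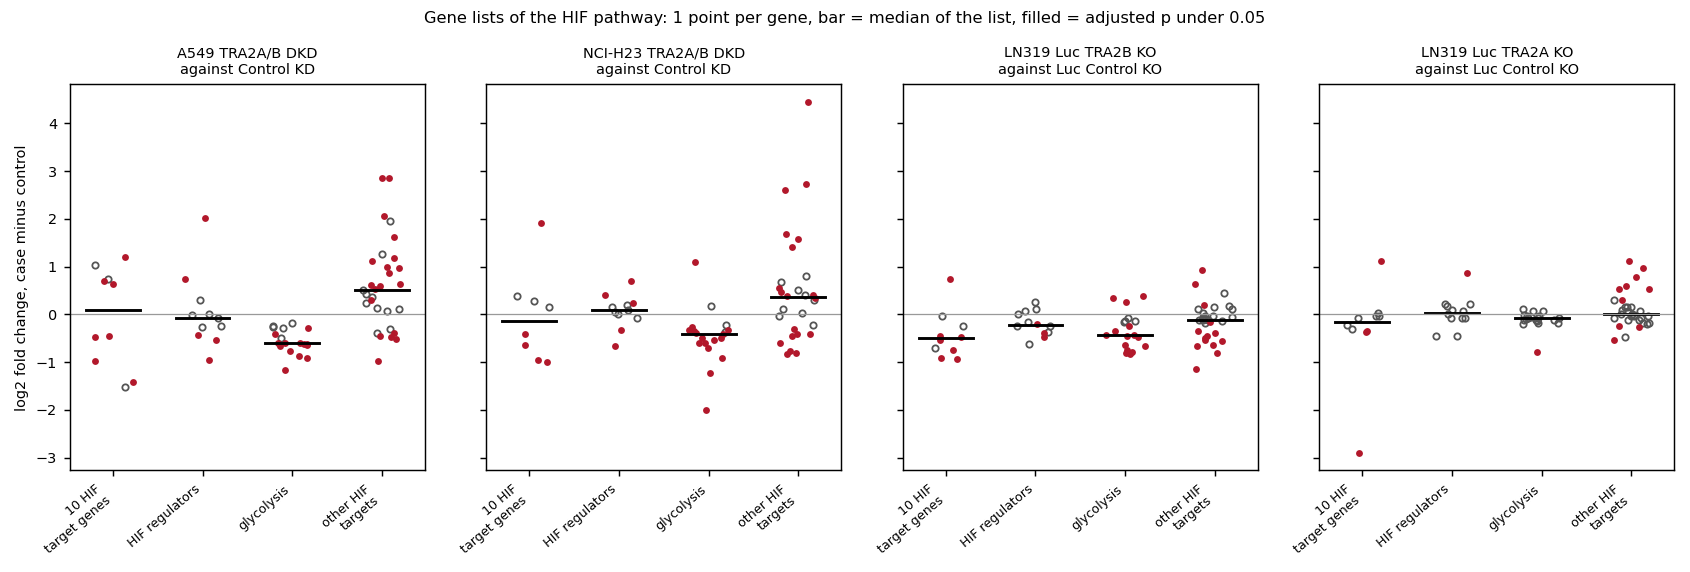
Log2 fold change (vertical axes, case minus control) of each gene of 4 lists (horizontal axes) in 4 comparisons, 1 panel each, filled where the adjusted p is under 0.05, with a bar for the list median. The glycolysis points lie mostly below 0 in the panels of A549 *TRA2A/B* DKD, NCI-H23 *TRA2A/B* DKD and LN319 Luc *TRA2B* KO, with medians of -0.60, -0.41 and -0.43, and near 0 in LN319 Luc *TRA2A* KO.

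Within each line some pairs of the 10 genes went with each other and others against. Over the 12 libraries of A549, which share the 4 conditions, the median Pearson r of the 45 pairs was 0.00, from -0.94 for *NDRG1* and *LDHA* to 0.88 for *SLC2A1* and *LDHA*. Over the 12 libraries of NCI-H23 the median of the 28 pairs was -0.27, from -0.95 for *NDRG1* and *LDHA* to 0.96 for *PDK1* and *LDHA*. In the 15 libraries of LN229 the median of the 45 pairs was -0.06, the lowest *ADM* with *NDRG1* at -0.90 and the highest *VEGFA* with *SLC2A1* at 0.92. In the 15 of LN319 the median was 0.27, with 28 of 45 pairs above 0, and *VEGFA* and *EGLN3* gave -0.87 and *LDHA* and *EGLN3* 0.89. These values describe the conditions chosen and carry no test. With each library centred on the mean of its line, a member's r with the mean of the other members ran from -0.38 to 0.27 over the 54 libraries, for the 8 genes that were tested in every line. Of 13381 genes compared, those whose levels were most like the mean of the 8 were *YRDC* (r = 0.83), *TNFRSF12A* (0.80) and *DUSP14* (0.80).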

How the data were processed

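RNA-seq of 54 libraries was used. According to the paper's methods, polyadenylated RNA was sequenced as directional libraries and the authors ran kallisto v0.48.0 against the Gencode v34 transcripts (GRCh38). The authors deposited gene-level TPM for each cell line, listed by symbol. Each TPM is a share of its own library per transcript length, without scaling between libraries. The sums ran from 928908 to 964610, and TPM keeps no depth. The authors' own differential test (edgeR normalization and limma-voom) needs counts and was not repeated. All 54 columns were matched to a sample, 0 libraries were identical, and the 28 symbols that read as dates were left unnamed.

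The fits ran separately per line, with limma 3.58.1 under R 4.3.3. A gene entered when 4 or more libraries of the line had 1 TPM or more, which left 16405 genes (A549), 16293 (NCI-H23), 18490 (LN229) and 19303 (LN319). Values were scaled by a trimmed mean of log ratios (trims of 30% and 5%) and taken as log2(TPM + 0.1). A single model per line held all its libraries, with moderated variances that followed a trend with mean level. All tests were two-sided, with Benjamini-Hochberg adjustment over every gene that entered. Levels are the TPM as deposited, with the SD of 3. An exact permutation of 3 libraries against 3 cannot give a two-sided p below 0.1. Tables of different lines were not tested against each other, and comparisons within a line share control libraries.

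The members and lists were chosen with earlier results of these data known. The genes named are the 10 members, the called HIF regulators, up to 3 genes of largest change per list and comparison among those called without overlap between groups, *TRA2A*, *TRA2B*, and the 3 genes most like the members' mean. A further gene that the rule names is not reported here. Alternatives changed the pseudocount to 0.5 or 1, the filter to none or to 5 TPM, and the rest as follows: TPM as deposited or quantile normalization, a fit of the compared groups alone, a block for the replicate number, a minimum absolute log2 fold change of 1, and each library left out in turn. The code was tested on simulated data, with 100 changed genes of each fold size per comparison. Of these it called 87 to 98 at 4-fold and 56 to 87 at 2-fold, with at most 16 false calls. A gene without a call may therefore still have changed. Promoter windows came from RefSeq (GRCh38.p14) and positions from Gencode v44, read with Python 3.11.15 and pandas 2.3.3, and figures were drawn with matplotlib 3.10.9. Splicing data were not used here.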

Additional observations from a re-analysis of the deposited data

Results flagged for a closer look

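Several genes moved in opposite directions in 2 lines under the same perturbation, with every library of each line on its own side of its controls. The difference between lines was not tested, because the tables were made separately. The genes were picked by this rule, and the share of all genes that meet it in 2 lines was not counted. Groups did not overlap, in either direction, in 41.5% of all genes in A549 DKD and 52.1% in NCI-H23 DKD. In Luc *TRA2B* KO this held for 23.6% of all genes in LN229 and 55.3% in LN319. After *TRA2A/B* DKD *PDK1* had a log2 fold change of 0.74 in A549 and -0.96 in NCI-H23, and *SLC2A1* one of -0.46 in A549 and 0.27 in NCI-H23. After Luc *TRA2B* KO *NDRG1* had 0.42 in LN229 and -0.53 in LN319, and *BNIP3* 0.20 in LN229 and -0.45 in LN319. After TRA2B-OE *TRA2A* KO *VEGFA* had 0.52 in LN229 and -0.39 in LN319, calls lost in 6 and 8 of 14 alternatives. The share of all genes without overlap in that perturbation is not given here. The A549 value of *PDK1*, the NCI-H23 value of *SLC2A1* and the LN229 values of *NDRG1* and *BNIP3* did not pass their own test.

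The effect of losing both paralogs differed from the sum of the single losses, by limma's test of that difference, in 3 of 10 genes of A549 and 5 of 8 of NCI-H23. Of all genes 14.7% passed this test in A549 and 21% in NCI-H23. In A549 the differences were 1.01 for *NDRG1*, -0.93 for *SLC2A1* and -0.92 for *LDHA*. In NCI-H23 they were 2.33 for *NDRG1*, -1.05 for *PDK1*, -0.97 for *ADM*, 0.91 for *ANKRD37* and -0.83 for *LDHA*. *NDRG1* lay above and *LDHA* below the sum in both lines, but with quantile normalization *LDHA* in A549 was at -0.36 and its call was lost. The *ANKRD37* call was lost in 4 of 20 alternatives.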

How the results depend on the processing

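No value of a member changed sign under any alternative while called. Of the 29 calls in the 14 comparisons 17 were kept under every alternative in which the gene was tested (the minimum fold change aside) and with every library left out in turn (23 of 37 with the differences of differences included), and 13 values that were not called became so somewhere. *EGLN3* in A549 DKD, counted as kept, was tested in 13 alternatives, because it did not enter at a minimum of 5 TPM. Counts of members called changed as follows. A minimum absolute log2 fold change of 1 left 2 of 7 in A549 *TRA2A/B* DKD, 1 of 5 in NCI-H23 DKD, 1 of 3 and 2 of 5 in the tests against the sum of the single losses in A549 and NCI-H23, 2 of 4 in LN319 Luc *TRA2A* KO, 0 of 7 in LN319 Luc *TRA2B* KO, 0 of 1 in LN319 TRA2B-OE Control KO, and 1 of 3 and 0 of 2 in TRA2B-OE *TRA2A* KO of LN319 and LN229. Fitting only the groups compared left 4 in A549 DKD and 0 in LN319 TRA2B-OE Control KO and in TRA2B-OE *TRA2A* KO of both lines. Without a filter on low values the count was 0 in LN229 TRA2B-OE *TRA2A* KO, 0 in LN319 TRA2B-OE Control KO and 1 in LN319 TRA2B-OE *TRA2A* KO. Quantile normalization gave 1 in LN229 TRA2B-OE *TRA2A* KO and 1 in LN229 Luc *TRA2B* KO, where a minimum of 5 TPM also gave 1. The replicate block gave 2 in LN229 Luc *TRA2B* KO (0 without it) and 3 in LN319 TRA2B-OE Control KO (1 without it). The replicate numbers were not taken as pairs, because every same-numbered correlation of deviations was over 0.1 in 0 of 14 comparisons (correlations of -0.15 to 0.21). The highest were those of LN229 replicate 1, at 0.21 for TRA2B-OE Control KO and 0.16 for Luc *TRA2A* KO, each against Luc Control KO.

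With each library left out in turn the counts ran from 6 to 9 in A549 DKD, 4 to 5 in NCI-H23 DKD, 3 to 4 and 4 to 5 against the sum of the single losses (*VEGFA* joined in A549 without Control KD replicate 3, and *ANKRD37* was lost in NCI-H23 without any of 3 libraries), 2 to 4 in LN319 Luc *TRA2A* KO, 7 to 8 in LN319 Luc *TRA2B* KO, 0 to 2 in LN319 TRA2B-OE Control KO, 1 to 3 and 0 to 2 in TRA2B-OE *TRA2A* KO of LN319 and LN229, and 0 to 4 in LN229 Luc *TRA2B* KO (4 without Luc Control KO replicate 1). They were 0 throughout in the single KDs of both lung lines, in LN229 Luc *TRA2A* KO and TRA2B-OE Control KO, and in both differences between backgrounds. On the TPM as deposited the median log2 fold change of all genes was -0.12 in A549 *TRA2A* KD (0.03 after scaling), 0.11 in A549 DKD (0.03), 0.12 in NCI-H23 *TRA2B* KD (0.00), 0.17 in NCI-H23 DKD (0.02), 0.12 in LN319 Luc *TRA2B* KO (0.02) and 0.26 in the A549 test against the sum (-0.05). The cause of these changes was not tested. Low transcripts (*CA9*, and *EGLN3* outside LN319) rest on values near the floor of the scale.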
